A study of Mus musculus with 24 samples.

Results

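Interferon-stimulated genes were described across mouse tumours of a study of pancreatic ductal adenocarcinoma (PDAC) with 4 treatment groups. The set held 39 genes, chosen by name as known targets of interferon signalling and taken from the deposited probe sets by gene symbol. Of these, 38 had a named probe set and are described here, among 19505 genes on the array, each by a single probe set. Ifi44 had no probe set under that symbol and is not analysed here. No measured value entered the choice, but the set was drawn up with earlier results from these tumours known.

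Interferons are secreted proteins that cells release when sensors such as RIG-I, MDA5 and cGAS detect viral or misplaced nucleic acid. Type I interferons bind the receptor of Ifnar1 and Ifnar2, which activates the kinases Jak1 and Tyk2 and leads to a transcription factor complex that holds Stat2 and Irf9. That complex binds the interferon-stimulated response element (ISRE) in target promoters, and the targets include antiviral effectors, the sensors themselves and the factors of the pathway. Tumour cells, macrophages and other cells of a tumour can all express these genes, and the signature is often used as a reading of interferon activity in tumours.

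Gene expression had been measured with Clariom S arrays on total RNA of homogenised tumour tissue from 24 mouse tumours, 6 per group. The groups were tumours of vector treated controls, of treatment with BMS754807 (an inhibitor of the IGF-1 receptor and insulin receptor kinases), of treatment with hydroxychloroquine (a lysosomal agent that blocks autophagy), and of treatment with both agents, called the combination. The series addresses inhibition of IGF1R/IR and of autophagy as an intervention in PDAC. Strain, age, tumour model, tumour site, dose and treatment time were not given in the sources used here, nor was it said that a group's tumours were from different mice. Errors and p-values therefore measure only the spread between these samples, which may be technical. In bulk tissue, fewer cells of a type and less RNA per cell cannot be told apart.

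Values were log2 signals whose array medians lay between 6.79 and 7.03, and no 2 arrays were identical. Ductal epithelial keratins were high in every group, with Krt8 group means of 16.11 to 16.46 and Krt19 group means of 15.35 to 15.66, while the acinar enzyme Cpa1 had group means of 4.68 to 4.91. In 5 tumours the skeletal muscle score, the mean log2 deviation of 8 muscle genes from their means over all tumours, was above 2: control tumour 5, BMS754807 tumours 2 and 6, hydroxychloroquine tumour 5 and combination tumour 1.

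The promoter stretches of 8 members described below are shown because they carry the element through which interferon acts, and because they let the members with and without it be read beside their values. Capitals mark the ISRE core, searched on both strands as GAAA, any 2 bases and GAAA, which on the opposite strand reads TTTC, any 2 bases and TTTC. A match is a run of letters and not a measured binding site. Overlapping cores were merged into 1 run of capitals.
Stat2: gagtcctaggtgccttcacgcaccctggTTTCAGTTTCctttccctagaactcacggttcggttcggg
Ifit1: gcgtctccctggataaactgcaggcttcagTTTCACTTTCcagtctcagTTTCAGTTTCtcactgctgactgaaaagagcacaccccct
Ifit3: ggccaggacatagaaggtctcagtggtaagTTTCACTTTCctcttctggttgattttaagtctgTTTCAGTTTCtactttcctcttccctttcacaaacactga
Oas3: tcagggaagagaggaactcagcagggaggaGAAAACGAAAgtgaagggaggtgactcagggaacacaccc
Rsad2: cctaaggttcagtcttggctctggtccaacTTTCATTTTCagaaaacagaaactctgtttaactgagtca
Bst2: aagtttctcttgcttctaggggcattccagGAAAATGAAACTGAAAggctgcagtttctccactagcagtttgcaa
Isg15: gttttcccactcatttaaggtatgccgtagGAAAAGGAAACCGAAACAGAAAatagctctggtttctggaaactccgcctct
Gbp2: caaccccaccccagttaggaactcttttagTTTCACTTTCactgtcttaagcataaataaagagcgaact

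These stretches are RefSeq sequence of build GRCm38.p6, written from 5′ to 3′ on the strand of the gene, and all lie upstream of its annotated start. Stat2, a subunit of the complex that binds the ISRE, has its stretch at chr10:128270248-128270315 on the plus strand. That of Ifit1 is at chr19:34640755-34640843 on the plus strand, and that of its neighbour Ifit3 is at chr19:34583343-34583446 on the plus strand. Both of these RNA-binding effectors have 2 separate cores. Oas3, an oligoadenylate synthetase, has 1 core at chr5:120777695-120777764 on the minus strand. Rsad2, which encodes viperin, has 1 at chr12:26456533-26456602 on the minus strand. Bst2, which encodes tetherin, has 2 overlapping cores at chr8:71537557-71537632 on the minus strand. Isg15, a ubiquitin-like modifier, has 3 overlapping cores at chr4:156200845-156200926 on the minus strand. Gbp2, a guanylate-binding GTPase, has 1 core at chr3:142620574-142620643 on the plus strand.

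Over the whole set, a window from 250 bases before the start to shortly after it was found for 29 of the 38 members. Of these, 15 held an ISRE core, or 51.7%, against 3.99% of 27025 genes with a window. A second element, the core of the gamma-activated site (TTC, any 3 bases and GAA, the same on both strands), stood in 7 of the 29 windows, or 24.1%, against 9.55% of all genes. The windows of Oasl1, Irf7, Irf9, Dtx3l and Samd9l held no ISRE core within these letters.

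Under hydroxychloroquine alone, the interferon-stimulated genes lay lower than in control tumours as a group, though no single gene passed the threshold. All 38 group means were below those of control, with a median difference of -0.34 on the log2 scale (0.789-fold) and a range from -1.11 to -0.02. Over all 19505 genes the median difference was 0.00, and 50% of differences were below 0. Members of the set were correlated across tumours, as described further on, so their differences are not independent of each other. The largest differences were those of Ifit3, Oasl1 and Irf7, each close to 1 log2 unit.

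Limma called 0 members at an adjusted p under 0.05 in this comparison, against a background of 0% of all genes. At an unadjusted p under 0.05 there were 8 members, or 21.1%, against 4.81% of all genes, and all 8 were lower: Oasl1, Irf7, Dtx3l, Ifit3, Oasl2, Bst2, Parp14 and Gbp3. No member had groups that did not overlap, against 0.154% of all genes. The count of 8 became 5 when control tumour 6 was left out, 4 when hydroxychloroquine tumour 3 was and 5 when hydroxychloroquine tumour 5 was. Without the 5 muscle-rich tumours 36 members were lower, with a median of -0.30. In that fit 7 had an unadjusted p under 0.05, against 5.87% of all genes. With array weights 37 members were lower.

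In the combination most of the set also had lower means than the same control tumours. There, 30 members had a mean below control and 8 above, with a median difference of -0.22 (0.861-fold) and a range from -1.12 to 0.21, while 48.3% of all genes were below 0. Limma called 0 members at an adjusted p under 0.05, against 0% of all genes. At an unadjusted p under 0.05 there were 5 members, or 13.2%, against 5.06% of all genes, all lower: Ifit3, Isg15, Oas3, Bst2 and Ifit1. No member had groups apart, against 0.308% of all genes. The count of 5 was 0 without combination tumour 3, 2 without combination tumour 6 and 3 without combination tumour 5. It was 1 without control tumour 3, 1 without control tumour 6, 3 without control tumour 5, 9 without control tumour 1, and 8 without BMS754807 tumour 6 or without the 5 muscle-rich tumours.

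Under BMS754807 alone, differences from control ran in both directions. In those tumours 25 members lay below control and 11 above, with a median of -0.12 (0.919-fold) and a range from -0.48 to 0.45, against 49.6% of all genes below 0. Limma called 0 members at an adjusted p under 0.05 (0% of all genes). At an unadjusted p under 0.05 it gave 2 members, Irf9 and Dtx3l, or 5.26% against 5.88% of all genes, and no member had groups apart (0.174% of all genes). The count of 2 became 1 without control tumour 1, 5 or 6, without BMS754807 tumour 4 or without combination tumour 4, and 0 without control tumour 3 or BMS754807 tumour 1, 2 or 3. The median rested in part on 1 tumour: without BMS754807 tumour 6 it was -0.29, with 34 members lower and 5 at an unadjusted p under 0.05. Leaving out other tumours brought the median closer to 0: -0.05 without control tumour 6 or BMS754807 tumour 3, -0.04 without BMS754807 tumour 1 and -0.03 without BMS754807 tumour 2. Without the 5 muscle-rich tumours it was -0.21, with 29 members lower and 4 at an unadjusted p under 0.05, against 6.39% of all genes. BMS754807 tumour 6 had the highest interferon-stimulated and macrophage scores of the group.

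**Figure D1:**
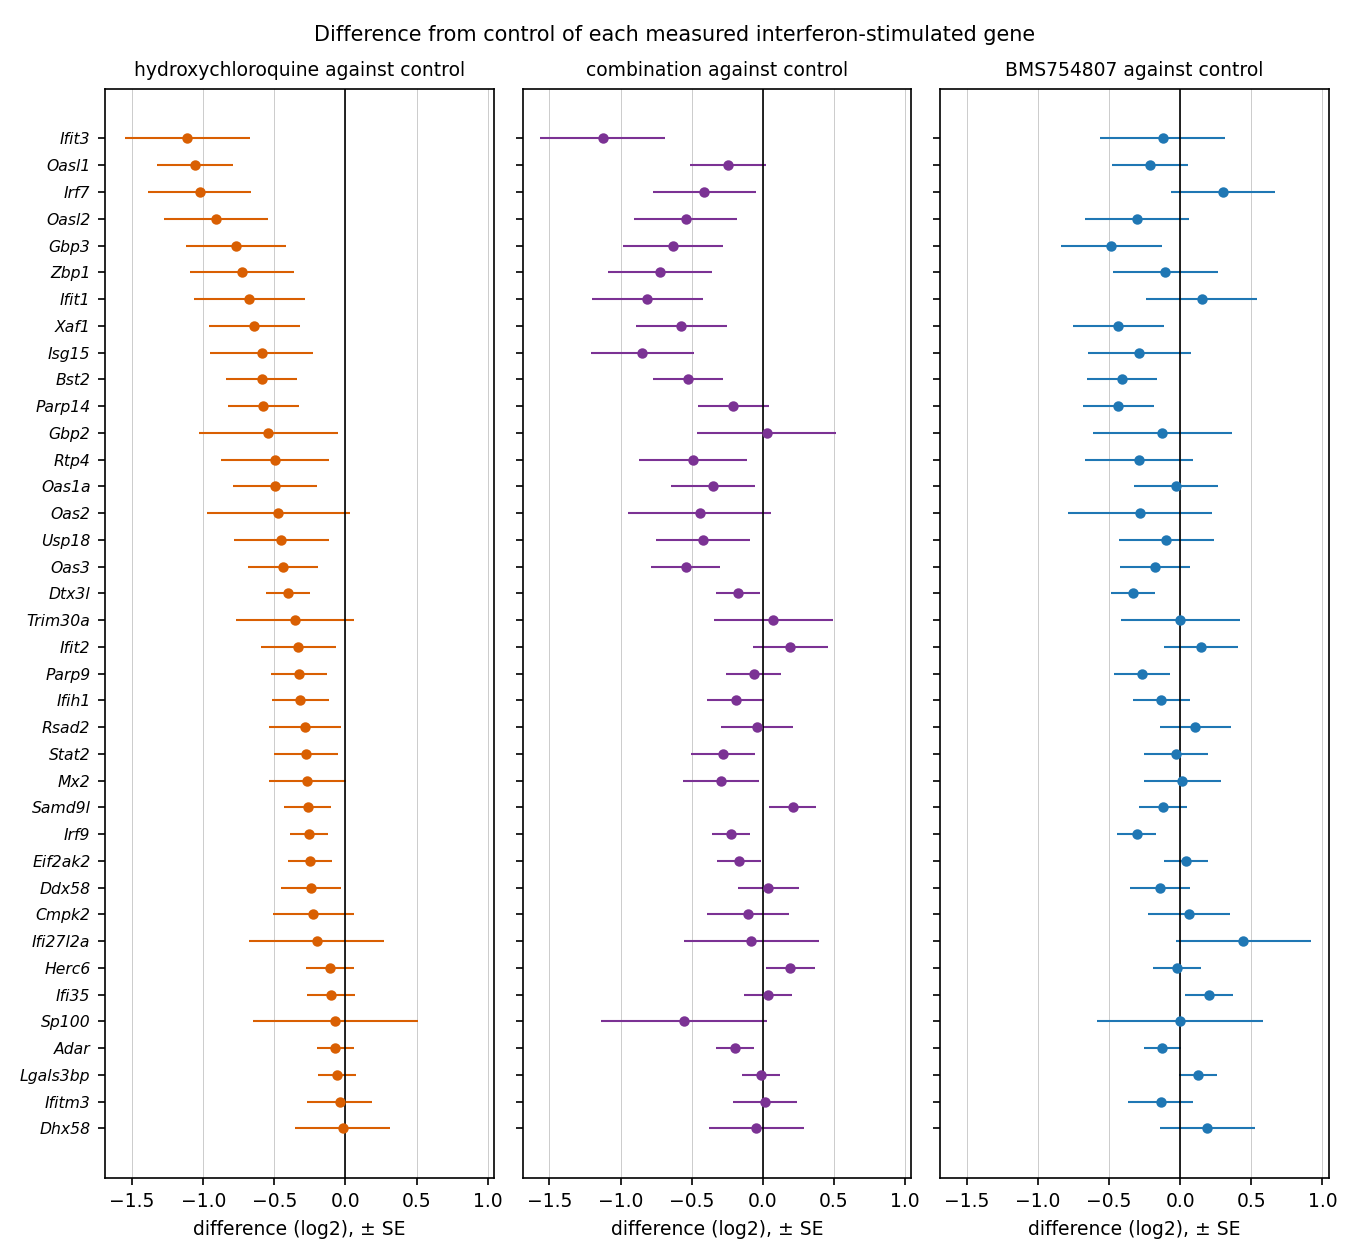
Difference from control of the 38 measured interferon-stimulated genes under hydroxychloroquine (left), the combination (middle) and BMS754807 (right), on the log2 scale. Points are fitted differences, bars are ± 1 SE from limma with n = 6 per group, and genes are ordered by the hydroxychloroquine difference. All 38 points of the left panel lie below 0, with Ifit3 at -1.11 at the top and Dhx58 at -0.02 at the bottom. The 3 panels share the same control tumours.

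The order of the 4 group means differed by gene. Hydroxychloroquine alone had the lowest mean for 27 of the 38 members, the combination for 9, BMS754807 for 2 and control for 0. Control had the highest mean for 21, BMS754807 for 10, the combination for 7 and hydroxychloroquine for 0. For 36 of the 38 members, every pair of neighbouring means in this order lay within 1 within-group SD of each other. Sorting the means favours small gaps, and the SD is that of single tumours and not the error of a mean. From lowest to highest mean, the span ran from 0.37 SD for Ifitm3 to 1.97 for Irf7 and 2.16 for Oasl1.

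Among the transcription factors of the set, Irf7, which is itself induced by interferon and drives the production of further type I interferon, showed the widest separation. Its signal ran from 5.53 to 7.52 in control tumours (median 7.21), from 6.11 to 8.87 under BMS754807 (median 7.14), from 5.12 to 6.27 under hydroxychloroquine (median 6.01) and from 6.08 to 7.02 in the combination (median 6.37). All 6 hydroxychloroquine tumours lay below the control mean, but control tumour 4 lay lower than 5 of them. The difference between hydroxychloroquine and control was -1.02 ± 0.36 (SE, log2; 0.491-fold; limma adjusted p = 0.979), and that of the combination was -0.41 ± 0.36 (adjusted p = 0.944).

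Irf9, the DNA-binding subunit of the complex, varied little between tumours. It ran from 8.86 to 9.66 in control (median 9.19), 8.65 to 9.23 under BMS754807 (median 8.87), 8.65 to 9.19 under hydroxychloroquine (median 8.92) and 8.71 to 9.21 in the combination (median 9.02). Each treated group overlapped control, and all 6 tumours of hydroxychloroquine and of the combination lay below the control mean. The difference was -0.31 ± 0.14 for BMS754807 (adjusted p = 0.839) and -0.26 ± 0.14 for hydroxychloroquine (adjusted p = 0.979).

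Stat2, which brings the activating domain to the complex, had control values of 9.44 to 10.4 (median 9.74), BMS754807 values of 9.39 to 10.7 (median 9.64), hydroxychloroquine values of 9.06 to 10.19 (median 9.5) and combination values of 9.23 to 10.04 (median 9.47). The groups overlapped widely. Its difference from control was -0.28 ± 0.23 under both hydroxychloroquine (adjusted p = 0.979) and the combination (adjusted p = 0.944), each under 2 SE.

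All 4 RNA and DNA sensors of the set lay lower under hydroxychloroquine (median -0.28), and 3 did in the combination (median -0.12). Ddx58, which encodes RIG-I, ran from 9.02 to 10.11 in control (median 9.32), 8.91 to 9.86 under BMS754807 (median 9.39), 8.72 to 9.95 under hydroxychloroquine (median 9.13) and 9.28 to 9.75 in the combination (median 9.46). The combination tumours all fell inside the control range. The difference of hydroxychloroquine from control was -0.24 ± 0.21 and that of the combination was 0.04 ± 0.21, with 95% intervals of -0.69 to 0.20 and of -0.41 to 0.48. Ifih1, which encodes MDA5, differed by -0.32 ± 0.20 under hydroxychloroquine, and Dhx58, which encodes their regulator LGP2, by -0.02 ± 0.34. Zbp1, a sensor of Z-form nucleic acid singled out after its values were seen, differed by -0.73 ± 0.37 under hydroxychloroquine and by -0.72 ± 0.37 in the combination, and all 6 tumours of both groups lay below its control mean.

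Of the 15 antiviral effectors, all 15 lay lower under hydroxychloroquine (median -0.44), 12 in the combination (median -0.29) and 9 under BMS754807 (median -0.12). At an unadjusted p under 0.05, 4 were lower under hydroxychloroquine, 4 in the combination and 0 under BMS754807, against 4.81%, 5.06% and 5.88% of all genes. Ifit3, one of the IFIT proteins, which bind viral RNA and block its translation, had the largest effector difference under hydroxychloroquine and in the combination.

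Ifit3 ran from 8.80 to 10.12 in control tumours (median 9.43), from 8.5 to 10.65 under BMS754807 (median 9.28), from 7.26 to 9.41 under hydroxychloroquine (median 8.48) and from 7.09 to 9.36 in the combination (median 8.41). Under hydroxychloroquine 5 of 6 tumours lay below the lowest control, and tumour 4 lay inside the control range. The combination tumours fell into separate levels: tumours 3, 5 and 6 lay at 7.09 to 7.47, below every control, and tumours 1, 2 and 4 at 9.35 to 9.36, inside the control range. The differences from control were -1.11 ± 0.44 (0.463-fold; 95% interval -2.03 to -0.19; adjusted p = 0.979) under hydroxychloroquine and -1.12 ± 0.44 (0.459-fold; 95% interval -2.04 to -0.21; adjusted p = 0.944) in the combination.

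Ifit3 has a near-identical copy, Ifit3b, and the probe sets of such copies may respond to each other's transcripts. In the combination, Ifit3b stood at 6.85 to 7.47 in tumours 3, 5 and 6 and at 8.66 to 9.51 in the other 3. Across the 24 tumours, with group means removed, the correlation of both genes was 0.89. Ifit3b differed from control by -1.38 ± 0.45 under hydroxychloroquine (adjusted p = 0.979) and by -1.10 ± 0.45 in the combination (adjusted p = 0.944).

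Ifit1 ran from 5.76 to 7.04 in control (median 6.29), 5.40 to 7.70 under BMS754807 (median 6.5), 4.24 to 6.42 under hydroxychloroquine (median 5.94) and 4.64 to 6.47 in the combination (median 5.72). In each of the last 2 groups 3 tumours lay below the lowest control and the others overlapped it. Its difference from control was -0.68 ± 0.39 (0.626-fold; adjusted p = 0.979) under hydroxychloroquine and -0.81 ± 0.39 (0.570-fold; adjusted p = 0.944) in the combination, against 0.15 ± 0.39 under BMS754807.

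Ifit2, which lies next to Ifit3 in the genome, did not follow them in value. Its control signals ran from 6.01 to 8.19 (median 7.5), with 7.06 to 8.2 under BMS754807 (median 7.33), 6.65 to 7.43 under hydroxychloroquine (median 7.02) and 7.17 to 7.93 in the combination (median 7.53). All treated groups fell within the control range apart from 1 BMS754807 tumour at its upper edge. The difference was -0.33 ± 0.26 under hydroxychloroquine (adjusted p = 0.979) and 0.19 ± 0.26 in the combination (adjusted p = 0.944).

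The oligoadenylate synthetases make short oligoadenylates on double-stranded RNA, which switch on RNase L, and the OASL proteins are their relatives. Oasl1, which in mice is known to restrain translation of Irf7, had the smallest unadjusted p of the set in any comparison. It ran from 5.87 to 6.80 in control (median 6.03), 5.02 to 6.58 under BMS754807 (median 6.03), 4.59 to 5.89 under hydroxychloroquine (median 4.96) and 5.37 to 6.6 in the combination (median 5.80). Under hydroxychloroquine 5 of 6 tumours lay below the lowest control, while 3 combination tumours did.

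Oasl1 differed from control by -1.06 ± 0.27 under hydroxychloroquine (0.481-fold; 95% interval -1.62 to -0.50; adjusted p = 0.939) and by -0.24 ± 0.27 in the combination (adjusted p = 0.944). The combination lay 0.81 ± 0.27 above hydroxychloroquine alone (1.76-fold; adjusted p = 0.882). Its neighbour Oasl2 differed by -0.91 ± 0.36 under hydroxychloroquine (0.532-fold; adjusted p = 0.979) and by -0.54 ± 0.36 in the combination.

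Oas3 had low signal throughout, under the lower quartile of every array (3.56 to 3.77) in all but 2 tumours. It ran from 2.67 to 3.89 in control (median 2.99), 2.42 to 4.04 under BMS754807 (median 2.74), 2.41 to 3.05 under hydroxychloroquine (median 2.61) and 2.08 to 3.33 in the combination (median 2.56). In the combination 5 tumours lay below the lowest control, and the sixth overlapped. The difference was -0.54 ± 0.25 in the combination (0.686-fold; adjusted p = 0.944) and -0.44 ± 0.25 under hydroxychloroquine (adjusted p = 0.979).

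Oas2 was among the most variable members. It ran from 3.85 to 5.69 in control (median 4.66), 2.84 to 6.77 under BMS754807 (median 4.06), 3.80 to 5.27 under hydroxychloroquine (median 4.03) and 3.38 to 5.02 in the combination (median 4.26). With that spread, its difference of -0.47 ± 0.50 under hydroxychloroquine (95% interval -1.52 to 0.58) was not distinguishable from 0. Oas1a differed by -0.50 ± 0.29 under hydroxychloroquine and -0.35 ± 0.29 in the combination.

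Bst2 encodes tetherin, which holds budding virus at the cell surface. Its signal ran from 10.66 to 11.67 in control (median 11.06), 10.28 to 11.78 under BMS754807 (median 10.53), 9.94 to 11.10 under hydroxychloroquine (median 10.55) and 10.06 to 11.02 in the combination (median 10.58). Under BMS754807 5 tumours lay below the lowest control, and tumour 6 lay above the highest. The differences were -0.59 ± 0.25 under hydroxychloroquine (0.664-fold; adjusted p = 0.979), -0.52 ± 0.25 in the combination (0.695-fold; adjusted p = 0.944) and -0.41 ± 0.25 under BMS754807.

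Samd9l, a growth-restraining antiviral factor, had its highest mean in the combination. It ran from 14.26 to 15.05 in control (median 14.93), 14.17 to 14.82 under BMS754807 (median 14.69), 14.03 to 14.78 under hydroxychloroquine (median 14.50) and 14.58 to 15.22 in the combination (median 15.00). Of the 6 combination tumours, 4 lay above every hydroxychloroquine tumour. Its difference from control was 0.21 ± 0.17 in the combination and -0.27 ± 0.17 under hydroxychloroquine, and the combination lay 0.47 ± 0.17 above hydroxychloroquine (1.39-fold; adjusted p = 0.902).

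Among the other effectors, Rsad2 ran from 3.93 to 4.85 in control (median 4.41), 3.93 to 5.38 under BMS754807 (median 4.49), 3.49 to 4.70 under hydroxychloroquine (median 4.22) and 3.78 to 4.88 in the combination (median 4.46), so that every group overlapped the others. Viperin, its product, makes a chain-terminating nucleotide. The differences from control were -0.29 ± 0.25, -0.04 ± 0.25 and 0.11 ± 0.25 under hydroxychloroquine, the combination and BMS754807. Mx2, Eif2ak2, Ifitm3 and Cmpk2 had differences of -0.27, -0.25, -0.04 and -0.22 under hydroxychloroquine, each within 2 SE of 0.

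**Figure D2:**
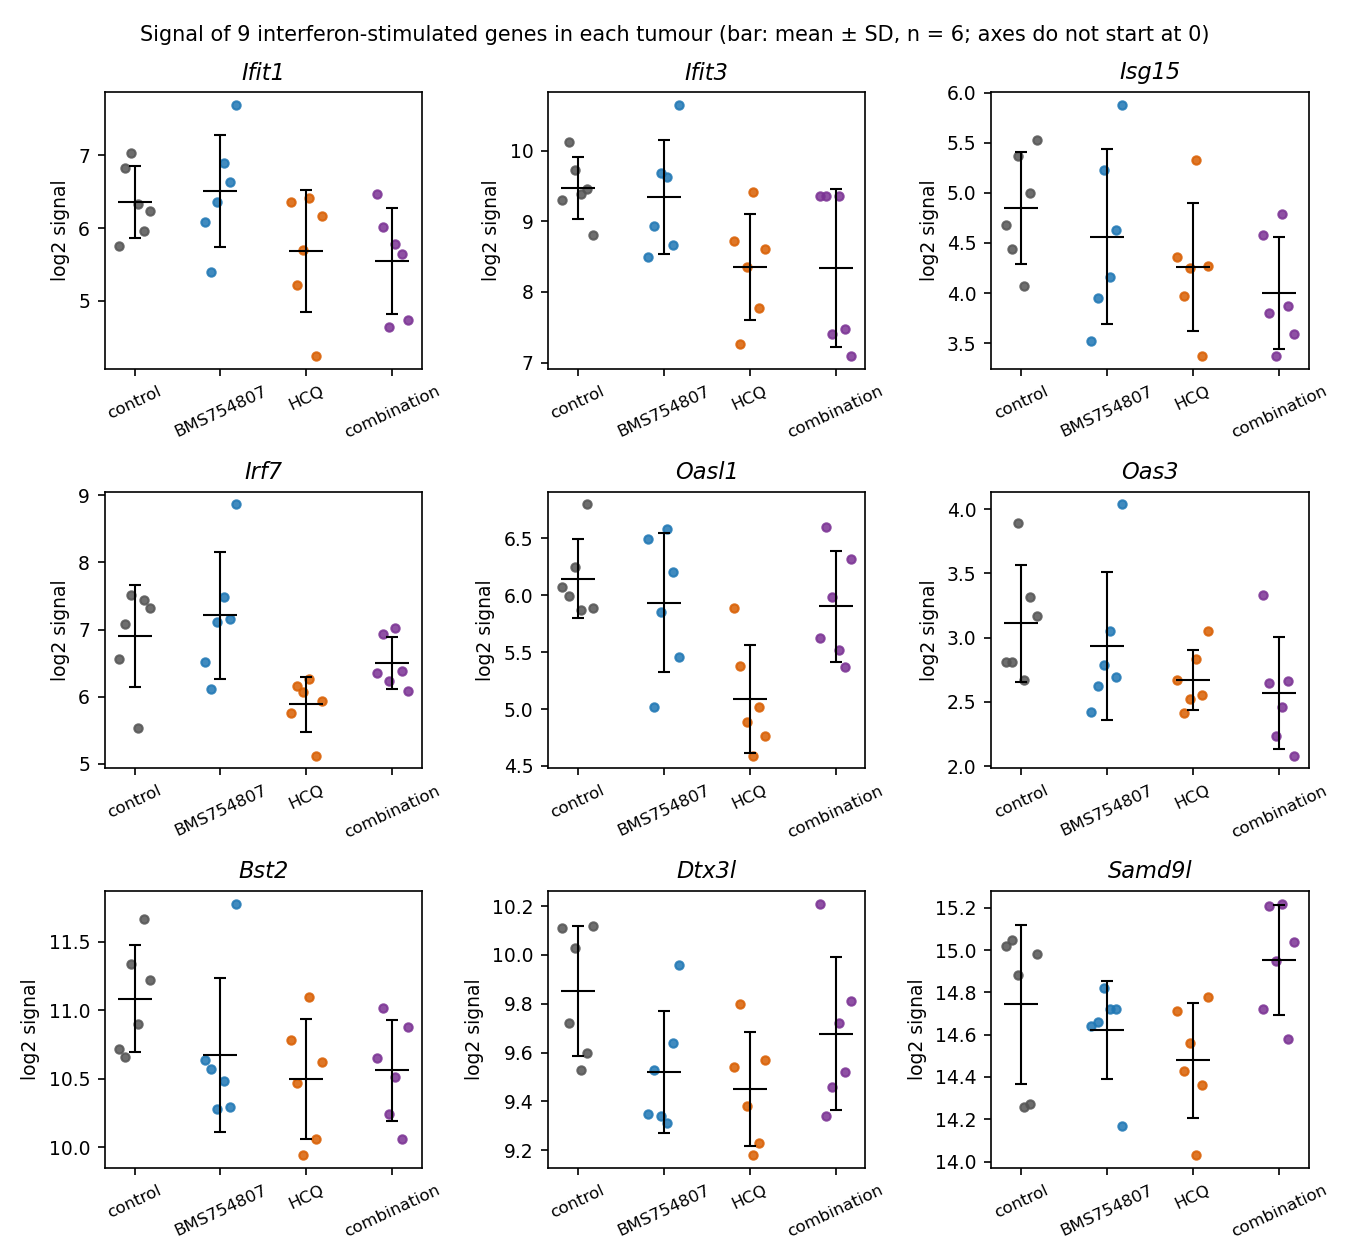
Log2 signal of 9 interferon-stimulated genes in each of the 24 tumours, by group, with points for tumours and bars for the mean ± SD (n = 6 per group; HCQ is hydroxychloroquine). Ifit3 in the combination separates into 3 tumours at 7.09 to 7.47 and 3 at 9.35 to 9.36, the hydroxychloroquine group has the lowest mean for Oasl1, and the combination the highest mean for Samd9l, with tumours of other groups overlapping both.

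Isg15, Usp18 and Herc6 form a protein modification system: Isg15 is attached to newly made proteins, Herc6 is the main ligase that does so in mice, and Usp18 removes it and also dampens signalling at the interferon receptor. Isg15 ran from 4.07 to 5.53 in control (median 4.84), 3.52 to 5.88 under BMS754807 (median 4.40), 3.37 to 5.33 under hydroxychloroquine (median 4.26) and 3.37 to 4.79 in the combination (median 3.84). In the combination all 6 tumours lay below the control mean and 4 below the lowest control. The lowest values were near the lower quartile of the arrays (3.56 to 3.77), as in combination tumours 3 and 6 at 3.37 and 3.59. Hydroxychloroquine tumour 5 was also at 3.37. The difference was -0.85 ± 0.36 in the combination (0.555-fold; adjusted p = 0.944) and -0.59 ± 0.36 under hydroxychloroquine (0.664-fold; adjusted p = 0.979).

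Usp18 ran from 6.06 to 7.38 in control (median 6.77), 6.17 to 8.12 under BMS754807 (median 6.31), 5.60 to 7.29 under hydroxychloroquine (median 6.14) and 5.84 to 6.92 in the combination (median 6.33). The groups overlapped, with differences of -0.45 ± 0.33 under hydroxychloroquine and -0.42 ± 0.33 in the combination. Herc6 ran from 8.70 to 9.86 in control (median 9.53) and from 9.35 to 10.07 in the combination (median 9.64), where it lay 0.19 ± 0.17 higher. Under hydroxychloroquine the difference of Herc6 was -0.11 ± 0.17.

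Parp9 and Dtx3l work as a complex of an ADP-ribosyltransferase family protein and a ubiquitin ligase, and Parp14 is a related mono-ADP-ribosyltransferase encoded beside them. All 3 lay lower than control in each treated group. Dtx3l ran from 9.53 to 10.12 in control (median 9.88), 9.31 to 9.96 under BMS754807 (median 9.44), 9.18 to 9.80 under hydroxychloroquine (median 9.46) and 9.34 to 10.21 in the combination (median 9.62). In each treated group 3 tumours lay below the lowest control, and combination tumour 1 lay above the highest.

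The difference of Dtx3l was -0.40 ± 0.16 under hydroxychloroquine (0.757-fold; adjusted p = 0.979), -0.33 ± 0.16 under BMS754807 (0.796-fold; adjusted p = 0.844) and -0.18 ± 0.16 in the combination (adjusted p = 0.944). Parp14 ran from 8.56 to 9.45 in control (median 8.82), 8.12 to 9.22 under BMS754807 (median 8.41), 7.78 to 9.40 under hydroxychloroquine (median 8.13) and 8.39 to 9.09 in the combination (median 8.70). Under hydroxychloroquine 4 of its tumours lay below the lowest control. Its difference there was -0.58 ± 0.25 (0.670-fold; adjusted p = 0.979).

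The remaining 10 members are GTPases, an RNA editor and other induced genes, and all 10 lay lower under hydroxychloroquine (median -0.28), 7 in the combination and 5 under BMS754807. Gbp3, a guanylate-binding GTPase singled out after its values were seen, had a narrow range of 6.80 to 7.23 under hydroxychloroquine (median 6.95) against 7.23 to 8.22 in control (median 7.76), so that the groups met at a single value. Its difference was -0.77 ± 0.35 (0.586-fold; adjusted p = 0.979). Under BMS754807 it ran from 6.34 to 9.28 (median 6.97) and in the combination from 6.31 to 8.25 (median 7.02), both overlapping control.

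Gbp2, its neighbour, was far more variable, from 7.13 to 9.70 in control (median 7.89), 6.97 to 9.25 under BMS754807 (median 7.74), 6.80 to 8.30 under hydroxychloroquine (median 7.66) and 7.14 to 9.68 in the combination (median 7.87). The groups were not distinguishable, with a difference of -0.54 ± 0.49 under hydroxychloroquine. Adar, which edits double-stranded RNA, stayed between 10.77 and 11.58 in all tumours, and its hydroxychloroquine difference was -0.07 ± 0.13 (95% interval -0.34 to 0.20). Lgals3bp, a secreted glycoprotein that binds galectins, and Sp100, a nuclear body protein, differed by -0.06 ± 0.13 and by -0.07 ± 0.58.

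Averaged over tumours with and without BMS754807, hydroxychloroquine had 35 of 38 members lower, with a median of -0.25 (0.843-fold). All genes had 49.6% below 0. Limma called 0 members at an adjusted p under 0.05 (0% of all genes) and gave 9, or 23.7%, at an unadjusted p under 0.05, against 8.09% of all genes. These 9 were Ifit3, Irf7, Ifit1, Oasl1, Zbp1, Oas3, Isg15, Oasl2 and Eif2ak2, all lower.

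In that average, Ifit3 differed by -1.06 ± 0.31 (0.480-fold; adjusted p = 0.317), Irf7 by -0.87 ± 0.26 (0.548-fold; adjusted p = 0.324), Ifit1 by -0.82 ± 0.28 (0.567-fold; adjusted p = 0.410) and Oasl1 by -0.54 ± 0.19 (0.686-fold; adjusted p = 0.425). Without BMS754807 tumour 6 the median of the set was -0.14 with 5 members at an unadjusted p under 0.05, and without combination tumour 3 that count was also 5. The corresponding average for BMS754807 gave 20 members lower and 18 higher, a median of -0.0033, 49.3% of all genes below 0, 0 members called by limma at an adjusted p under 0.05 (0% of all genes) and 0 at an unadjusted p under 0.05, against 5.72% of all genes. Without the muscle-rich tumours that average had a median of -0.10, with 27 members lower.

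Beside hydroxychloroquine alone, most of the set had higher means in the combination. Against hydroxychloroquine alone, 29 members were higher in the combination and 9 lower, with a median of 0.10 (1.07-fold), and 48% of all genes were below 0. Limma called 0 at an adjusted p under 0.05 (0% of all genes), and 2 members, Oasl1 and Samd9l, or 5.26% against 5.39% of all genes, were higher at an unadjusted p under 0.05. No member had groups apart (0.267% of all genes). Without the muscle-rich tumours the median was 0.01 with 18 lower, and the count was 4 without control tumour 5 or without hydroxychloroquine tumour 1. The median was 0.03 without hydroxychloroquine tumour 3 or combination tumour 1, 0.15 without combination tumour 2, 0.18 without combination tumour 3 and 0.19 without hydroxychloroquine tumour 4.

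Adding hydroxychloroquine to BMS754807 gave 27 members lower and 11 higher, with a median of -0.16 (0.898-fold), against 50.4% of all genes below 0. Limma called 0 at an adjusted p under 0.05 (0% of all genes) and gave 2 members, Ifit1 and Ifit3, at an unadjusted p under 0.05, or 5.26% against 8.61% of all genes. No member had groups apart (0.651% of all genes). Ifit1 differed by -0.96 ± 0.39 (0.513-fold; adjusted p = 0.507) and Ifit3 by -1.0 ± 0.44 (0.499-fold; adjusted p = 0.541). The direction rested on BMS754807 tumour 6, without which 18 members were lower and the median was 0.01. It was -0.06 without combination tumour 3, -0.10 without the muscle-rich tumours and -0.27 without BMS754807 tumour 2. The count was 0 without combination tumour 3 or 6, 1 without BMS754807 tumour 6, and 4 without control tumour 4, BMS754807 tumour 1 or combination tumour 1.

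The interaction, the effect of BMS754807 with hydroxychloroquine minus its effect without it, was above 0 for 30 of 38 members, with a median of 0.23, while 49.1% of all genes were below 0. Limma called 0 members at an adjusted p under 0.05 (0% of all genes). There were 4 at an unadjusted p under 0.05, or 10.5% against 5.05% of all genes: Oasl1 at 1.02 ± 0.38, Samd9l at 0.60 ± 0.24, Dtx3l at 0.56 ± 0.22 and Parp14 at 0.80 ± 0.35 (adjusted p = 0.951 for each). The median fell to 0.12 when BMS754807 tumour 1 was left out and to 0.14 when control tumour 5 was. It was 0.34 when hydroxychloroquine tumour 4 was left out and 0.41 without BMS754807 tumour 6. The count was 9 without BMS754807 tumour 6, against 4.64% of all genes.

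Between tumours of the same group the set was more variable than the typical gene. The median within-group SD of the members was 0.49 log2 units against 0.33 over all genes. The largest were those of Sp100 (1.09), Oas2 (0.94) and Gbp2 (0.91), and the smallest those of Adar (0.22), Lgals3bp (0.22) and Irf9 (0.22). Sp100 ran from 8.06 to 12.00 over all tumours, a range wider than any difference between group means.

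The members moved together across tumours. With group means removed, the 703 pairs of members had a median Pearson r of 0.34 over 24 tumours, and 598 pairs were above 0. The highest was that of Oasl2 and Rtp4 at 0.87 and the lowest that of Ifitm3 and Samd9l at -0.70. These are descriptions over tumours that share their cell makeup and their array scale. With the mean of the other members, Oas2 and Zbp1 correlated at 0.85, Ifi27l2a at 0.84 and Isg15 at 0.83, and 16 members were above 0.7. Samd9l (-0.36) and Oasl1 (-0.17) ran against the rest, and Lgals3bp (0.00) with none. Much of this rested on 1 tumour: without BMS754807 tumour 6 the median pairwise r was 0.25, 7 members were above 0.7, and Oasl1 had -0.0041 with the other members.

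**Figure D3:**
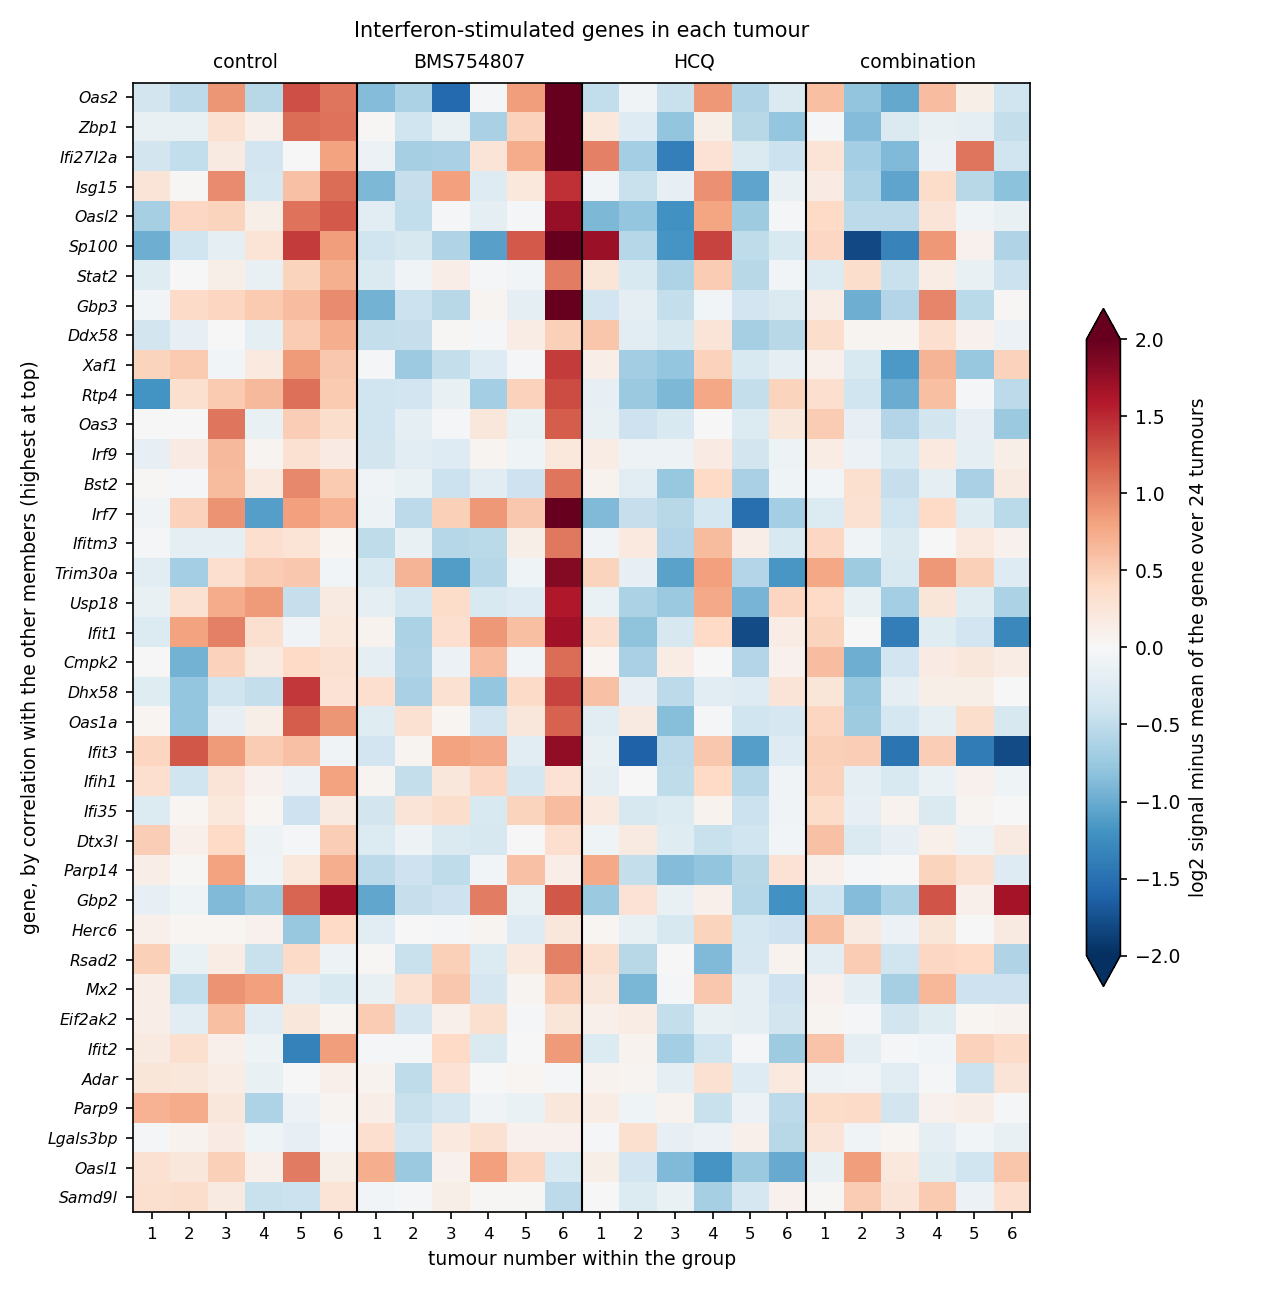
Each of the 38 interferon-stimulated genes in each of the 24 tumours, as log2 signal minus the gene's mean over all tumours (colour scale from -2 to 2; HCQ is hydroxychloroquine). Genes are ordered by their correlation with the other members, from Oas2 at 0.85 to Samd9l at -0.36. BMS754807 tumour 6 is high for most genes of the upper rows and low for Samd9l.

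**Figure D4:**
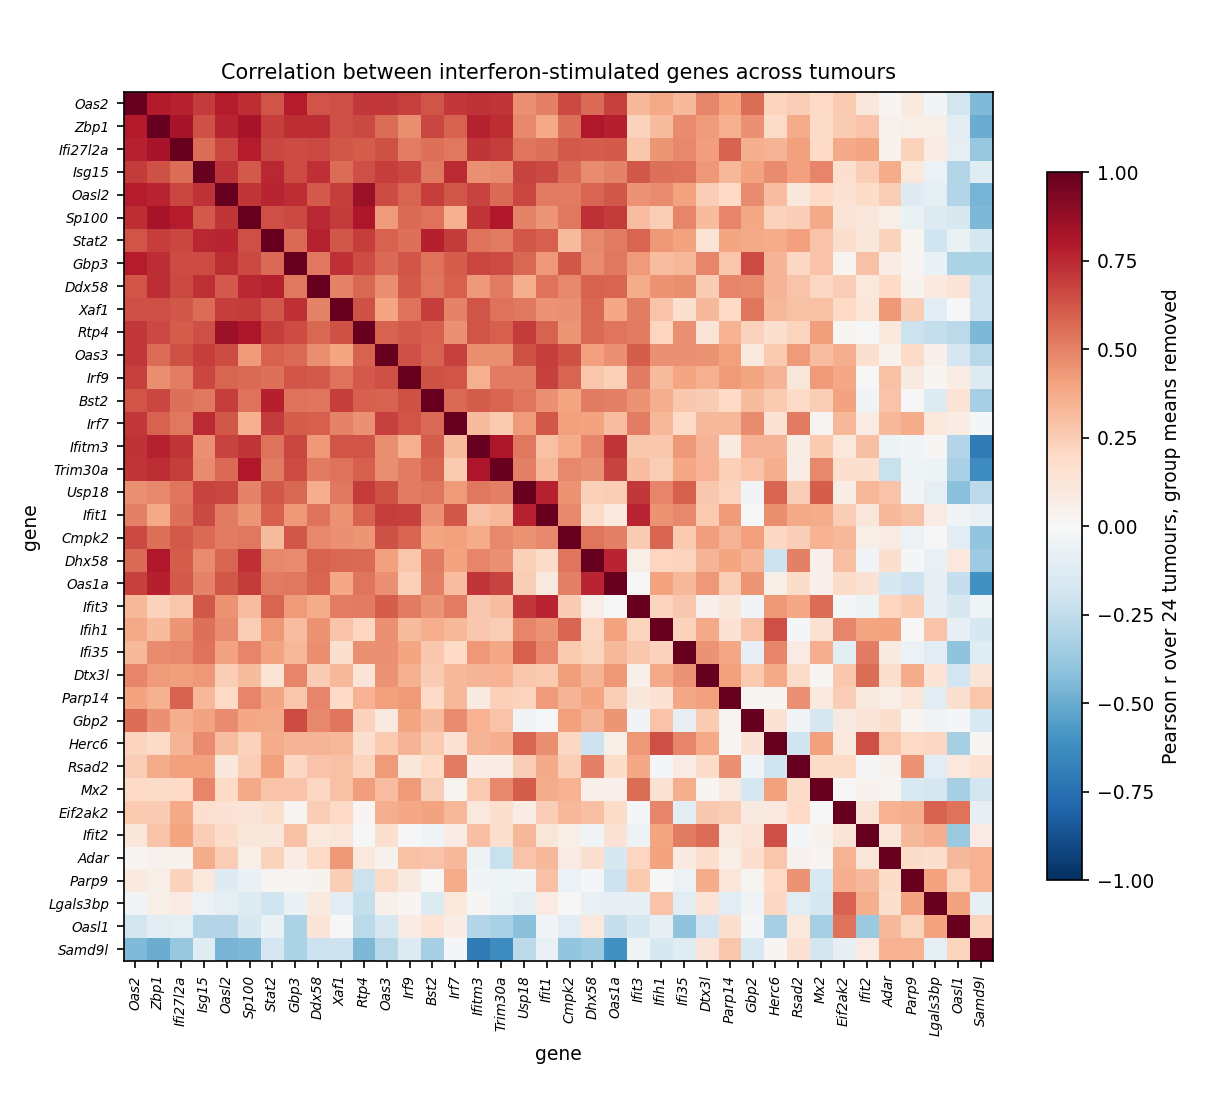
Pearson r of every pair of the 38 genes over 24 tumours after removal of group means, with genes in the same order on both axes. Of the 703 pairs 598 are above 0, and of the 105 below 0, 53 involve Samd9l or Oasl1.

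The score of the set, the mean log2 deviation of its 38 genes, was 0.20 ± 0.23 in control (SD, n = 6; -0.03 to 0.48), 0.10 ± 0.49 under BMS754807 (-0.30 to 1.06), -0.22 ± 0.28 under hydroxychloroquine (-0.51 to 0.16) and -0.08 ± 0.27 in the combination (-0.47 to 0.24). The groups overlapped. BMS754807 tumour 6 stood at 1.06, and the next tumour of its group at 0.14.

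Macrophages can express many of these genes, and their markers varied with the set. The macrophage score over 10 measured markers correlated with the score of the set at r = 0.74 (Spearman rho 0.60) over 24 tumours with group means removed, at 0.57 without BMS754807 tumour 6, and at 0.55 without the 2 tumours farthest from the median macrophage value (control 5 and BMS754807 6). Ifitm3 (0.89), Oas2 (0.84), Oas1a (0.82) and Zbp1 (0.81) had the highest correlation with the macrophage score. Samd9l had -0.74 with it (-0.69 without BMS754807 tumour 6) and 0.67 with the score of 11 epithelial markers. The score of the set correlated with the epithelial score at -0.58, and at -0.46 without BMS754807 tumour 6. Over all tumours it correlated with the endothelial score at 0.61, the NK cell at 0.57, the fibroblast at 0.52, the adipocyte at 0.50 and the skeletal muscle at 0.12. These correlations include BMS754807 tumour 6 and were not computed without it. That tumour had the highest adipocyte (4.85) and NK cell (1.02) scores of all tumours, so they may rest in part on it.

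By group, macrophage scores ran from -0.40 to 1.28 in control, -0.81 to 1.71 under BMS754807, -0.69 to 1.00 under hydroxychloroquine and -0.83 to 0.38 in the combination. In the combination all 10 macrophage markers lay lower than control (median -0.63), and 3 had an unadjusted p under 0.05, against 5.06% of all genes. Under hydroxychloroquine 6 of 10 lay lower (median -0.06), and 1 of the 10 had an unadjusted p under 0.05, against 4.81% of all genes. The defining markers Adgre1 and Csf1r had group means of 8.34 to 9.09 and 10.42 to 11.14, above the lower quartile of every array. Of 7 dendritic cell and 7 endothelial markers, all lay lower in the combination (medians -0.38 and -0.52), and the part of these lists in the result was not tested. For plasmacytoid dendritic cells, a major source of type I interferon, the 5 markers were Siglech, Ccr9, Spib, Pacsin1 and Cox6a2. Cox6a2 (1.61) and Spib (0.98) had the largest within-group SDs of these. The score of the 5 markers was 1.52 in hydroxychloroquine tumour 1 and 0.70 in tumour 5. The other 4 tumours of that group lay within the control range. Tumour 1 also had the highest score of B and plasma cell markers of all tumours, at 3.55. Tumour 5 had the highest skeletal muscle score, at 6.93. Whether other cell types contributed to the score of these 5 markers was not tested. With the macrophage score as a covariate, the median of the set against control was -0.32 under hydroxychloroquine, with 35 members lower and 11 at an unadjusted p under 0.05, against 6.56% of all genes in that fit. For the combination the median with the covariate was -0.07, with 23 lower and 2 at an unadjusted p under 0.05, against 5.36% of all genes. Against hydroxychloroquine alone, the combination then had a median of 0.30, with 9 members at an unadjusted p under 0.05 (4.9% of all genes), and against BMS754807 a median of 0.07 in place of -0.16. Limma called 0 members in each of these fits.

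**Figure D5:**
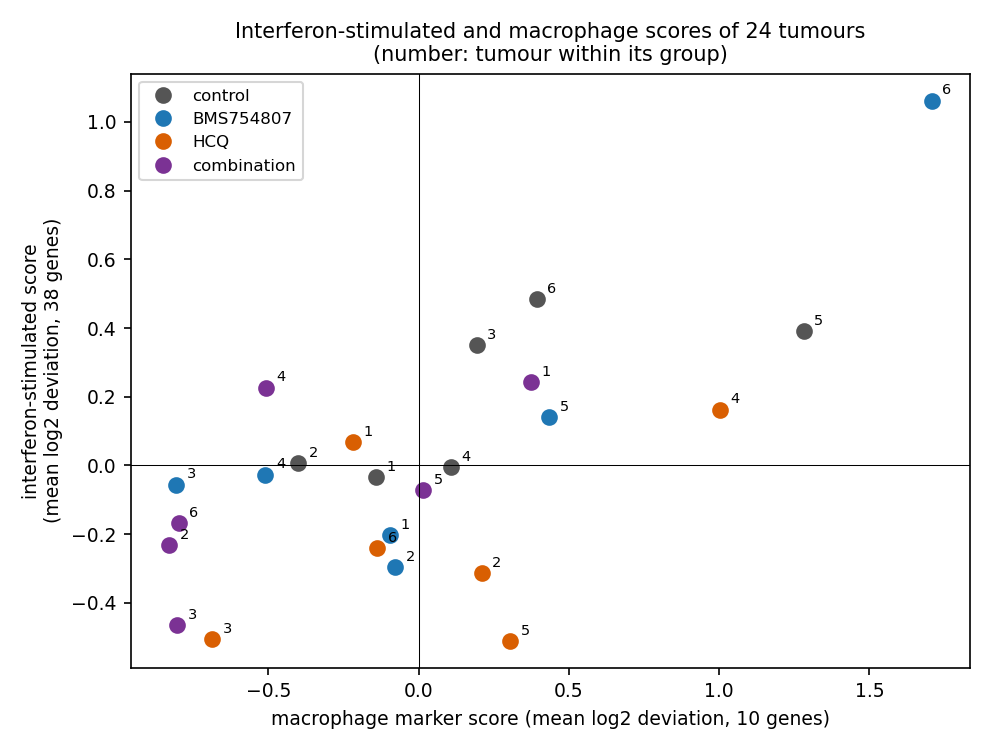
Score of the interferon-stimulated genes (mean log2 deviation of 38 genes) against the macrophage score (mean log2 deviation of 10 genes) in 24 tumours, coloured by group and numbered within it (HCQ is hydroxychloroquine). BMS754807 tumour 6 lies at the upper right with scores of 1.06 and 1.71, and hydroxychloroquine tumours 3 and 5 are lowest on the vertical axis at -0.51.

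Upstream of these genes, the interferons themselves gave little signal. Of 19 measured ligands, 14 lay lower under hydroxychloroquine, 16 in the combination and 12 under BMS754807, against 50%, 48.3% and 49.6% of all genes. Among the 19 ligands, 1, 0 and 2 had an unadjusted p under 0.05, against 4.81%, 5.06% and 5.88% of all genes. Ifnb1 had group means of 2.54 to 2.74, under the lower quartile of each array, and its differences from control were 0.09, -0.11 and -0.04 ± 0.19 under BMS754807, hydroxychloroquine and the combination. Ifne, an epithelial type I interferon, differed by -0.37 ± 0.15 under hydroxychloroquine and by -0.36 ± 0.15 under BMS754807, and Ifnk by -0.40 ± 0.18 under BMS754807.

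The receptor subunits Ifnar1 and Ifnar2 lay close to control. Ifnar1 differed by 0.13 ± 0.11 under hydroxychloroquine and 0.18 ± 0.11 in the combination, and Ifnar2 by -0.10 ± 0.12 and -0.15 ± 0.12. Of 6 receptor genes, 5, 4 and 4 lay lower under hydroxychloroquine, the combination and BMS754807, against 50%, 48.3% and 49.6% of all genes. Ifngr1, a subunit of the interferon gamma receptor, differed by -0.33 ± 0.13 under BMS754807 (limma adjusted p = 0.827). Il10rb, shared with the type III receptor, differed there by -0.30 ± 0.12 (limma adjusted p = 0.838). These were the only receptor genes at an unadjusted p under 0.05 in a comparison with control. Under BMS754807 the share of all genes at that p was 5.88%.

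Among 9 other kinases and transcription factors of the pathway, 4 lay lower under hydroxychloroquine (median 0.00). Jak2 was the 1 at an unadjusted p under 0.05, at -0.27 ± 0.10, against 4.81% of all genes. Of 14 sensors and adaptors outside the set, 7 lay lower (median -0.01). Mavs, the mitochondrial adaptor of RIG-I and MDA5, differed by 0.33 ± 0.13 under hydroxychloroquine and 0.34 ± 0.13 in the combination. Under BMS754807, Cgas, the cytosolic DNA sensor, differed by 0.51 ± 0.22, and Tlr3, an endosomal RNA receptor, by -0.36 ± 0.13. None of these passed the threshold.

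A further 36 interferon-stimulated genes outside the set lay lower in 31 cases under hydroxychloroquine (median -0.18), 25 in the combination (median -0.09) and 21 under BMS754807 (median -0.05). The shares of all genes below 0 were 50%, 48.3% and 49.6% in that order. The further genes with an unadjusted p under 0.05 were Ifit3b and Parp12 (-0.50 ± 0.23) under hydroxychloroquine, against 4.81% of all genes. In the combination they were Gbp9 (-1.08 ± 0.35, limma adjusted p = 0.920) and Ifit3b, against 5.06% of all genes. The score of these 36 genes correlated with that of the set at 0.94 over 24 tumours. Cxcl10, an interferon-inducible chemokine that draws T cells, differed by -0.57 ± 0.31 under hydroxychloroquine, -0.29 ± 0.31 in the combination and 0.11 ± 0.31 under BMS754807.

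Read against the promoter stretches shown above, the 15 members with an ISRE core had a median difference of -0.44 under hydroxychloroquine, the 14 with a window and no core -0.26, and the 9 without a window -0.45. Oasl1 and Irf7, with 2 of the 3 largest differences, are in the group with no core. In the combination the medians were -0.28, -0.19 and -0.29. These are descriptions of a short window and were not tested.

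Several members are neighbours in the genome. In RefSeq's gene order, 12 pairs of members lie within 10 genes of each other. Of the 12, 10 correlated above 0 across tumours, with a median r of 0.39. Over all 703 pairs of members, 598 (85.1%) were above 0 with a median r of 0.34, so neighbours as a group were close to other pairs. Ifit1 and Ifit3 had r = 0.76, Oas2 and Oas3 0.71, Gbp2 and Gbp3 0.66, and Dtx3l and Parp14 0.41. By contrast, Oasl1 and its neighbour Oasl2 had -0.29, and Ifit2 and Ifit3 had -0.05. Neighbouring members thus ranged from closely correlated to opposed.

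Outside the set, the genes whose values followed its score most closely over the 24 tumours, with group means removed, were Gvin1 (r = 0.90), Fermt3 (0.88), Arhgef6 (0.86), Cybb (0.86), Gbp4 (0.85), Fxyd2 (0.84), Phf11b (0.84), Slfn8 (0.84), Zdhhc14 (0.83) and Lyl1 (0.83). Gbp4 and Slfn8 are among the further interferon-stimulated genes described above. Fermt3 and Cybb are expressed mainly in blood cells, where they encode an integrin activator and a subunit of the phagocyte oxidase.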

How the data were processed

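Total RNA from 24 mouse tumours (4 groups of 6) was measured on Clariom S arrays. The deposited table held 22206 probe sets with 0 missing values, as the authors' log2 signal. Their scale, which no label names, was taken as log2 because values ran from 1.45 to 19. Transcriptome Analysis Console 4.0 is named in the submitters' processing notes. Normalization and genome build were not given in the sources used here. Probe sets with 1 gene symbol numbered 19572, and 2634 had none. Keeping the probe set of highest mean per gene dropped 67 and left 19505 genes. Each member had a single probe set. Arrays have no count depth, and their number limits the precision.

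Limma 3.58.1 in R 4.3.3 fitted 1 coefficient per group to all arrays (lmFit, eBayes, 20 residual degrees of freedom). Tests were two-sided, with Benjamini-Hochberg adjustment over 19505 genes and a threshold of 0.05. The 3 comparisons with control share its 6 tumours. The model was tested on simulated data. Scores are mean deviations from gene means. Correlations use values minus group means.

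The members and all gene lists were chosen with earlier results of these data known. Genes were named by a rule: the 4 members of smallest p in each comparison, 9 preset members, the 3 largest and 3 smallest within-group SDs, up to 2 genes of smallest p per pathway list, 5 preset pathway genes, and the 10 genes most like the score. Of 106 listed pathway genes, 94 were measured, and of 102 cell type markers, 95. Alternatives were quantile normalization, a low-value filter, the mean over probe sets, array weights, a replicate block, only the compared groups, the macrophage score as covariate, and leaving out muscle-rich or single tumours. Replicate numbers are not known to pair the tumours: 9 of 36 same-numbered pairs of tumours correlated above 0.1.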

Additional observations from a re-analysis of the deposited data

Results flagged for a closer look

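In 92 groups of 6 values, from the 22 named members and the score of the set, 8 had a tumour far from the others by Dixon's test, where chance gives about 1 in 20 groups. The tests share tumours and the genes are correlated, so they are not independent. Part of the members were named by their p-values or within-group SDs in these same values, so the rate of 1 in 20 does not strictly hold for them.

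BMS754807 tumour 6 accounted for 5 of the 8. It had the highest Bst2 of its group at 11.78 (next 10.64), the highest Usp18 at 8.12 (next 6.89), the highest Stat2 at 10.7 (next 9.81) and the highest score of the set at 1.06 (next 0.14). It had the lowest Samd9l at 14.17 (next 14.64). Its macrophage score was 1.71, its adipocyte score 4.85 and its skeletal muscle score 4.15, and their part in these values was not tested.

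Herc6 was lowest in control tumour 5 at 8.7 (next 9.5). Lgals3bp was lowest in BMS754807 tumour 2 at 14.49 (next 14.94). Oas2 was highest in hydroxychloroquine tumour 4 at 5.27 (next 4.33), and the macrophage score of that tumour was 1.00.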

How the results depend on the processing

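No member was called at an adjusted p under 0.05 under any alternative. Median differences of the set moved by less than the spread between tumours under every alternative, and their direction turned for the combination against BMS754807 with the macrophage covariate (0.07) or without BMS754807 tumour 6 (0.01), and for the BMS754807 average with the covariate (0.10), with quantile normalization and without some single tumours. Counts of members at an unadjusted p under 0.05 moved by over 1.5 times as follows. With array weights, BMS754807 gave 5, hydroxychloroquine 13, and the combination against hydroxychloroquine 4, while counts over all genes also rose, from 1146 to 1365, 939 to 1102 and 1052 to 1227. With only the compared groups fitted, BMS754807 gave 0 and the combination against hydroxychloroquine 4, against 5.15% and 6.2% of all genes. With the filter, which kept 23 members, the combination gave 2 against control, 1 against BMS754807 and 1 against hydroxychloroquine, and the hydroxychloroquine average 3. The shares of all genes there were 5.21%, 11%, 5.43% and 10.4% in that order. Without muscle-rich tumours, BMS754807 gave 4, the combination 8 and the BMS754807 average 1, against 6.39%, 4.64% and 6.52% of all genes. With the macrophage covariate, BMS754807 gave 1, and the combination 2 against control, 1 against BMS754807 and 9 against hydroxychloroquine. In that fit the BMS754807 average gave 4 and the interaction 8. The shares of all genes in it were 7.76%, 5.36%, 6.85%, 4.9%, 7.21% and 4.91% in that order. The cause was not tested.

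Leaving out each tumour in turn gave counts of 0 to 5 for BMS754807 against control, 4 to 12 for hydroxychloroquine, 0 to 9 for the combination, 0 to 4 for the combination against BMS754807, 2 to 4 against hydroxychloroquine, 5 to 11 for the hydroxychloroquine average, 0 to 2 for the BMS754807 average and 3 to 9 for the interaction. Counts of called members stayed at 0. The medians ran from -0.29 to -0.03, -0.43 to -0.31, -0.29 to -0.18, -0.27 to 0.01, 0.03 to 0.19, -0.30 to -0.14, -0.05 to 0.06 and 0.12 to 0.41, in the same order.

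With the replicate number as a block, the counts at an unadjusted p under 0.05 were 2, 9, 4, 2, 2, 10, 0 and 4 in that order, with 0 members called. The shares of all genes were 5.68%, 4.77%, 5.27%, 8.37%, 5.46%, 7.98%, 5.7% and 4.86%. The replicate numbers are not known to pair the tumours, and 6 of 24 tumours correlated best with their own number. How many would do so by chance was not computed. The tumours numbered 3 correlated with each other at a mean r of 0.19 (0.09 to 0.30). For the other numbers the mean r ran from -0.07 to 0.0024. The reason was not tested.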
